A study of Mus musculus with 18 samples.

Results

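Lipid droplet coat and lipolysis genes were examined by RNA-seq of the ileum of IEC-*Ppara* mice. The 10 genes were taken by symbol from the 55487 genes of the count files: the perilipins *Plin2*, *Plin3*, *Plin4* and *Plin5*, the CIDE genes *Cideb* and *Cidec*, the lipase *Pnpla2*, its co-activator *Abhd5*, and its inhibitors *G0s2* and *Hilpda*. IEC-*Ppara* mice carry a FLAG-tagged *Ppara*-IRES-*EGFP* cassette behind a CAG promoter at the *Col1a1* locus, which Cre turns into its expressed orientation, and *Villin-CreERT2*, which supplies tamoxifen-dependent Cre in the intestinal epithelium. The comparison was made between 6 control mice, which lack *Villin-CreERT2*, 6 heterozygous and 6 homozygous IEC-*Ppara* mice, with 1 library per mouse. All groups, controls included, were C57BL6/J animals on chow, received tamoxifen at 100 mg/kg on each of 3 days at 8 to 13 weeks of age, and were sampled 2 weeks after the last dose. Each group held both sexes, with 3 females and 3 males among controls and 2 females and 4 males in each IEC-*Ppara* group. Because they lack *Villin-CreERT2*, the controls differ from the other groups in Cre as well as in expressed transgene. Counts summed to between 38528522 and 50376371 per library.

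A lipid droplet is a store of triglyceride and cholesteryl ester wrapped in a phospholipid monolayer, and perilipins coat its surface and govern access of lipases to the core. Lipolysis begins with ATGL, the product of *Pnpla2*, which is switched on by ABHD5 and held back by G0S2 and HILPDA, while CIDE proteins let droplets fuse and grow and also act in lipoprotein loading. In enterocytes, droplets hold dietary fat for a time before it leaves in chylomicrons or is burned, and *Plin2* and *Plin3* are the perilipins best known there. *Plin1*, *Plin4*, *Cidec* and *G0s2* are highly expressed in fat cells, and several of these genes are known targets of PPAR family receptors.

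The question put to the data was which of these genes follow the *Ppara* dose. *Ppara* itself followed the labels: its level in CPM (counts scaled to the library total) was 38.1 ± 8.40 (SD, n = 6) without Cre, 141 ± 35.4 in heterozygous mice and 216 ± 35.5 in homozygous mice, with no control reaching a transgenic library. The tissue was whole-thickness ileum, and the libraries differed in what else they held. *Adipoq*, which encodes the fat cell hormone adiponectin, stood between 3.36 and 56.6 CPM in 10 libraries and at or under 0.211 CPM in the other 8. The 10 were 3 control, 2 heterozygous and 5 homozygous libraries. Summed over the 5 defining adipocyte markers (*Adipoq*, *Plin1*, *Lep*, *Retn* and *Adrb3*), the control libraries ran from 0.706 to 158 CPM, the heterozygous ones from 0.127 to 155 CPM and the homozygous ones from 2.21 to 141 CPM. The sum over 10 smooth muscle markers ran from 682 to 6139.6, from 852 to 4510.2 and from 4157 to 9690.1 CPM in the same order. Enterocyte markers were present in all libraries, with sums between 16724 and 28574 CPM over 12 genes.

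Levels between genes were compared per transcript length, as FPKM, which divides the CPM by gene length in kilobases. In controls *Plin3* (71.2 ± 6.37 FPKM, SD, n = 6) and *Pnpla2* (71.2 ± 5.86) stood highest and did not differ beyond their spread. *Plin2* (24.2 ± 4.16), *Cidec* (22.0 ± 11.2) and *Cideb* (17.4 ± 1.91) followed and overlapped each other. *G0s2* (6.04 ± 3.54), *Plin4* (5.85 ± 6.47), *Abhd5* (3.48 ± 0.291) and *Hilpda* (2.00 ± 0.493) were low, and *Plin5* (0.101 ± 0.116) was close to the limit of detection. Some places in this order differed with *Adipoq*. In the 3 controls at or under 0.5 CPM, *Cidec* (15.0 FPKM) was under *Cideb* (18.9) and *Plin4* (0.929) under *Hilpda* (1.83). In the 3 controls over it, *Cidec* (28.9 FPKM) was above *Plin2* (26.8) and *Plin4* (10.8) above *G0s2* (8.48). In homozygous libraries *Plin2* reached 37.9 ± 7.36 FPKM and *Cidec* 37.2 ± 14.6 FPKM, still under *Pnpla2* at 81.8 ± 9.11 and *Plin3* at 67.7 ± 6.06. The genes also differed in how much they varied between mice. Over all 18 libraries the coefficient of variation of CPM was 8.31% for *Plin3*, 9.26% for *Cideb* and 10.2% for *Abhd5*, against 63.9% for *G0s2* and 99.2% for *Plin4*.

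**Figure D1:**
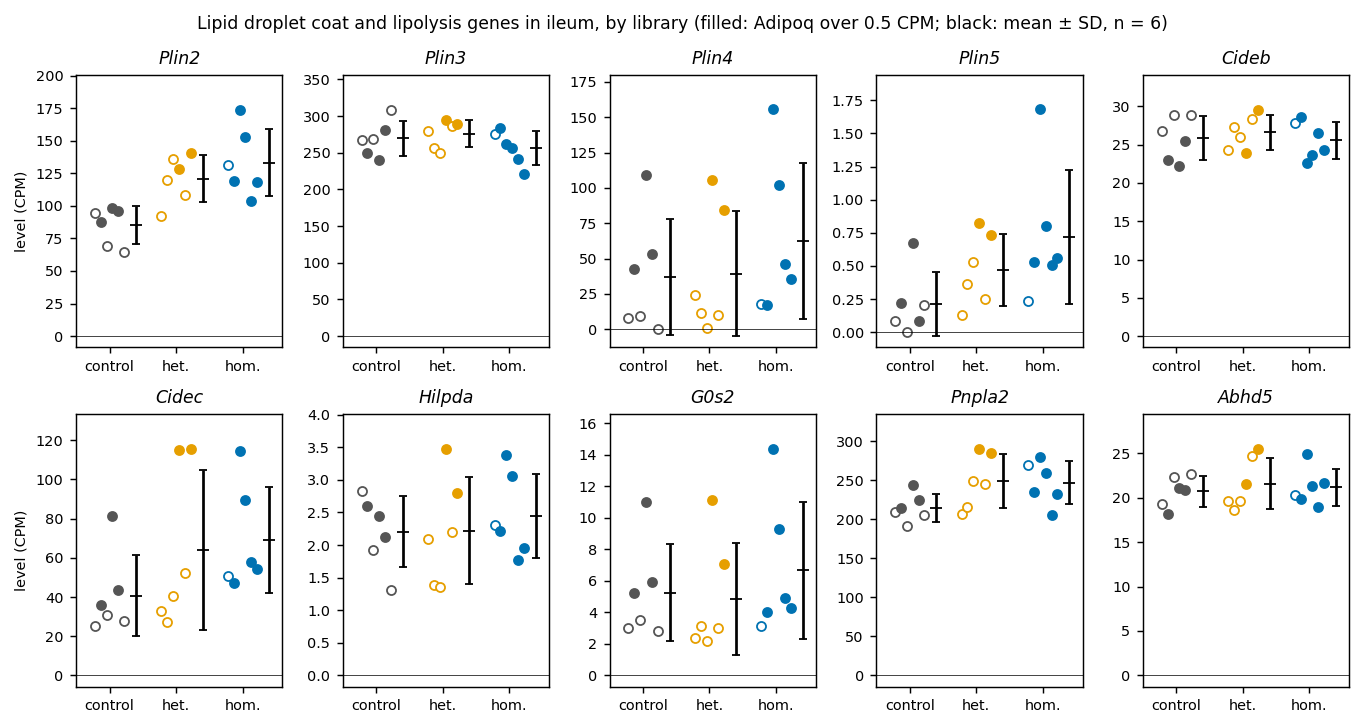
Level in CPM (vertical axis, linear) of the 10 genes in each library by genotype (horizontal axis), with mean ± SD (n = 6) in black and filled points for libraries with *Adipoq* over 0.5 CPM. Every homozygous library lies above every control for *Plin2*, while for *Plin4*, *Cidec* and *G0s2* the highest points of each genotype are filled.

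The 10 genes lie on 7 chromosomes of GRCm38, and *Plin3*, *Plin4* and *Plin5* sit together on chromosome 17. *Plin2* occupies chr4:86648386-86670060 on the minus strand, *Plin3* chr17:56277476-56292873, *Plin4* chr17:56100591-56109803, *Plin5* chr17:56111601-56117596, all on the minus strand. *Cidec* occupies chr6:113424634-113435760 (minus), *Cideb* chr14:55754050-55758458 (minus), *Pnpla2* chr7:141455198-141460743 (plus), *Abhd5* chr9:122351608-122381524 (plus), *G0s2* chr1:193272161-193273217 (minus) and *Hilpda* chr6:29272488-29275446 (plus). *Cideb* shares 1136 exonic bases with *Nop9* on the opposite strand, *Abhd5* shares 950 with the antisense gene *A730085K08Rik*, and *Plin4* shares 17 with *Hdgfl2*. Whether reads were counted by strand is not given in the sources used here, so values of *Cideb* and *Abhd5* may hold reads of these neighbours or lack ambiguous ones.

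Of the 10 genes, 8 passed the filter on low counts (over 3 CPM in at least 4 libraries), and *Plin5* and *Hilpda* did not. In homozygous against control ileum 1 of the 8, *Plin2*, passed an adjusted p of 0.05 in edgeR's quasi-likelihood test. By the same rule 0.411% of all 12645 protein-coding genes tested were called, 52 genes. The median log2 fold change of the 8 genes was 0.28, with 6 higher and 2 lower, beside a median of -0.0048 over all genes tested. Of 15 tested adipocyte markers all 15 were higher in the same comparison, with a median of 0.34, and edgeR and DESeq2 called none, with none at an unadjusted p under 0.05 by edgeR. Their part in the median of the 8 genes was not tested. In heterozygous against control ileum none of the 8 was called, at a background of 0.293%. An unadjusted p under 0.05 was reached by 3 of the 8 for homozygous against control, where 1019 of the 12645 genes reached it, and by 2 of the 8 for heterozygous against control, where 669 did. DESeq2 called 1 of them there, *Plin2*, at its own background of 0.648%.

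*Plin2*, the perilipin that coats most droplets outside fat cells, rose in homozygous ileum. Its level was 94.1, 87.9, 69.2, 98.4, 96.3 and 64.6 CPM in the control libraries. It was 132, 119, 174, 153, 104 and 118 CPM in the homozygous libraries, so that all 6 lay above the highest control. In the heterozygous libraries it was 92.4, 119.8, 136, 128, 108 and 141 CPM, with 5 of 6 above the highest control and the remaining one inside the control range. The log2 fold change of homozygous against control was 0.65 (SE 0.12, a 1.57-fold level, edgeR adjusted p = 0.0116). That of heterozygous against control was 0.54 (SE 0.12, 1.45-fold, adjusted p = 0.0804), which missed the threshold. Among all genes tested, 0.593% had every homozygous library above every control, and 0.293% had every heterozygous library above every control, which *Plin2* did not. *Plin2* is among the genes that the study singled out from these same libraries, so its rise here is not independent evidence of that choice. In whole tissue, more cells expressing *Plin2* and more *Plin2* RNA per cell cannot be told apart.

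*Plin2* kept its call in all 18 fits that left out 1 library, with log2 fold changes of 0.58 to 0.71 and adjusted p of 0.0055 to 0.0403. With a block for the replicate number its log2 fold change was 0.64 and the adjusted p 0.0603. In the 10 libraries with *Adipoq* over 0.5 CPM the log2 fold change was 0.55 (SE 0.14, adjusted p = 0.275). In the 8 others, where only 1 is homozygous, it was 0.75. Calls over all 12645 genes came to 33 in the 10 libraries and to 49 with the block, against 52.

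*Plin3*, a perilipin that moves from the cytosol onto newly made droplets, did not pass the test in either comparison. The controls spanned 240.4 to 309 CPM (median 268), the heterozygous libraries 249.6 to 294 CPM (median 283) and the homozygous libraries 220.5 to 283 CPM (median 259). The groups overlap throughout, and the log2 fold changes were -0.073 (SE 0.087, adjusted p = 0.880) for the homozygous and 0.060 (SE 0.087, adjusted p = 1.00) for the heterozygous comparison with control. The log2 ratio of *Plin2* to *Plin3* counts within a library, which needs no scaling between libraries, was -1.68 ± 0.358 (SD, n = 6) in controls, -1.20 ± 0.261 in heterozygous and -0.96 ± 0.265 in homozygous ileum. The difference between homozygous and control was 0.72 (two-sided exact permutation p = 0.00216, the smallest that 6 libraries against 6 allow, and 0.0260 after Benjamini-Hochberg adjustment over 12 ratio tests). Between heterozygous and control it was 0.47 (exact p = 0.0238, adjusted 0.143). *Plin2* therefore changed relative to *Plin3* in homozygous ileum, while the heterozygous difference did not pass the correction.

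The promoters of the 4 perilipins are shown because *Plin2* alone among these sister genes on 2 chromosomes passed the test, although its change was tested directly only against that of *Plin3*. PPARα binds DNA with RXR at direct repeats of AGGTCA spaced by 1 base, and the closest match to such a repeat on either strand was sought in the 300 bases from 250 before to 50 after each RefSeq start (GRCm38.p6). The match is in capitals, printed 5′ to 3′ on the strand of the gene, within a window of 30 bases.
Plin2: agctttcaGGACCCCTGACCTaagtcagac
Plin3: ctctgattGGCCCTCTGTCCTgtcactcca
Plin4: tggagagcAGGGGAAAGGTGCtgggttggg
Plin5: ctcagtccTAGTCTGAGGTCAgccatggtg

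The *Plin2* window (chr4:86670263-86670292) differs from the repeat at 2 of 12 positions and reads it on the opposite strand, starting 225 bases before the start site. Matches this close were found in 1 of 13 promoters of the 10 genes and in 3.86% of 32851 promoters. The windows of *Plin3* (chr17:56290562-56290591, opposite strand) and of the outer of 2 *Plin5* starts (chr17:56117704-56117733, same strand) differ at 3 positions, and matches at least this close were found in 7 of the 13 promoters and in 24.6% of all promoters. That of *Plin4* (chr17:56109912-56109941, same strand) differs at 4, which 12 of the 13 and 79.8% of all promoters reach or better. A match is a description of the letters in this window and not a binding site.

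*Plin4*, the perilipin of fat cells and muscle, varied more within each genotype than between genotypes. It was 8.04, 42.7, 9.52, 109, 53.4 and 0.151 CPM in the control libraries. The heterozygous libraries held 24.1, 11.3, 0.506, 105, 10.2 and 84.2 CPM, and the homozygous libraries 17.6, 17.5, 156, 102, 46.2 and 35.8 CPM. The spread inside each genotype was wide, and the groups overlapped. The log2 fold change was 0.78 (SE 0.98, adjusted p = 0.888) for homozygous and 0.14 (SE 0.98, adjusted p = 1.00) for heterozygous against control. Single libraries set much of the homozygous value of *Plin4*, which was 0.29 without homozygous replicate 3, 0.52 without control replicate 6 and 1.46 without control replicate 4. It was 1.89 with limma and 0.48 with sex in the model, and none of these fits called it. The libraries with *Adipoq* over 0.5 CPM were 9 of the 10 with the most *Plin4*.

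*Plin5*, which ties droplets to mitochondria in oxidative tissues, was counted 0 to 74 times per library. It was at 0.0869, 0.218, 0, 0.675, 0.0844 and 0.202 CPM in controls, where the count of 0 in replicate 3 allows up to 0.0732 CPM (3 counts, counting error only). The heterozygous libraries stood at 0.127, 0.366, 0.527, 0.822, 0.250 and 0.732 CPM, and the homozygous ones at 0.233, 0.527, 1.68, 0.804, 0.507 and 0.557 CPM. All 6 homozygous libraries were above the control median and 2 above the highest control. In the fit of all 19314 protein-coding genes with any count, which called 0.274% of genes in this comparison, the log2 fold change was 1.78 (SE 0.64, unadjusted p = 0.0121, adjusted p = 0.504). For heterozygous against control, with 0.207% called, it was 1.21 (SE 0.64, adjusted p = 0.955), and 1.97 without control replicate 4. Of the 10 libraries with the most *Plin5*, 8 had *Adipoq* over 0.5 CPM, among them the highest 6. *Plin5* had the largest fitted change of the 10 genes and the fewest reads, and it did not pass the correction.

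**Figure D2:**
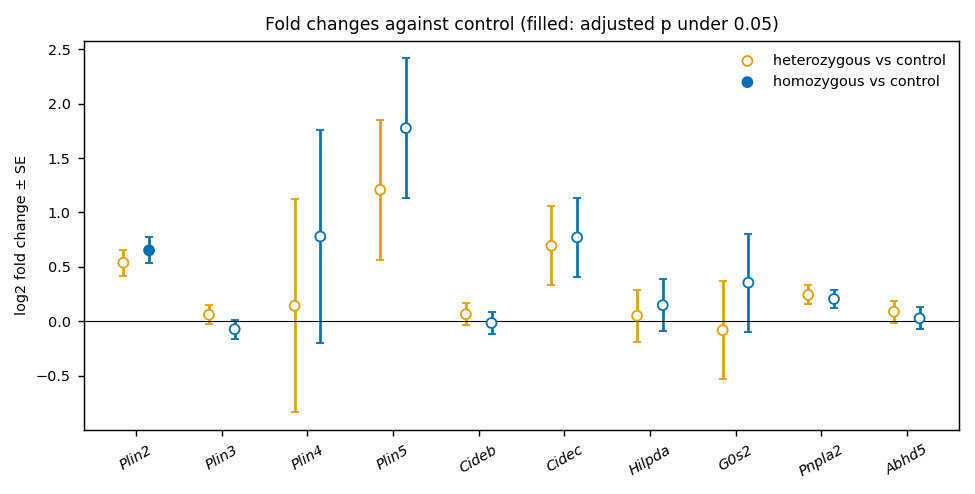
Log2 fold change ± SE (vertical axis) of the 10 genes (horizontal axis) for heterozygous and homozygous against control, with filled points where the adjusted p was under 0.05. The only filled point is *Plin2* in homozygous ileum at 0.65, and the error bars of *Plin4* span close to 1 log2 unit on each side.

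Neither CIDE gene passed the test in either comparison with control. *Cidec*, which enlarges droplets, was 25.2, 36.0, 30.7, 81.2, 43.7 and 27.9 CPM in the controls. The heterozygous libraries held 33.1, 27.5, 40.4, 115, 52.5 and 116 CPM, and the homozygous libraries 51.0, 47.3, 115, 89.6, 57.7 and 54.2 CPM. All 6 homozygous libraries exceeded the control median, and 2 exceeded the highest control, so the groups overlap. Its log2 fold change was 0.77 (SE 0.37, unadjusted p = 0.0490, adjusted p = 0.616) in homozygous ileum and 0.69 (SE 0.37, adjusted p = 1.00) in heterozygous ileum against control. *Cidec* moved with the adipocyte markers, with a slope of 0.23 log2 units per log2 unit (SE 0.035, edgeR adjusted p = 0.00079) in a model with genotype and marker contents that was chosen after the values were seen. *Adipoq* exceeded 0.5 CPM in 5 of 6 homozygous, 2 of 6 heterozygous and 3 of 6 control libraries. *Cideb*, known for its part in loading fat onto lipoproteins in liver and intestine, stayed between 22.2 and 29.6 CPM in all 18 libraries. Its log2 fold changes were -0.016 (SE 0.10, adjusted p = 0.986) and 0.065 (SE 0.10, adjusted p = 1.00), and the sign of the first turned with the marker content in the model or with 1 of several libraries left out.

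*Pnpla2*, which encodes the triglyceride lipase ATGL, was 209, 214, 192, 244, 225 and 206 CPM in controls. The heterozygous libraries held 206, 216, 249, 290.3, 245 and 286 CPM, and the homozygous ones 269.6, 235, 280.0, 259, 206 and 233 CPM. In each transgenic group 5 of 6 libraries lay above the control median, and the ranges overlapped. The log2 fold change was 0.20 (SE 0.086, unadjusted p = 0.0283, adjusted p = 0.571) for homozygous and 0.24 (SE 0.086, unadjusted p = 0.0111, adjusted p = 0.668) for heterozygous against control, so that neither passed the correction. In the 8 libraries with little *Adipoq*, of which only 1 is homozygous, the homozygous and heterozygous values were 0.36 and 0.17. In the other 10 libraries they were 0.15 and 0.40, and neither was called. Females held *Pnpla2* at 206 and 216 CPM (heterozygous) and at 235 and 206 CPM (homozygous), inside the control range. Males held it at 245 to 290.3 CPM and at 233 to 280.0 CPM in the same order. In an edgeR model of sex by genotype, the male minus female term was 0.46 (SE 0.13, adjusted p = 0.153) for heterozygous against control. It was 0.28 (SE 0.13) for homozygous against control, and neither passed the correction. *Abhd5*, the co-activator of ATGL, spanned 18.1 to 25.5 CPM over all libraries, with log2 fold changes of 0.027 (SE 0.10, adjusted p = 0.972) and 0.088 (SE 0.10, adjusted p = 1.00).

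Neither inhibitor of ATGL passed the test. The control libraries held *G0s2* at 3.02, 5.20, 3.51, 11.0, 5.93 and 2.85 CPM. The heterozygous libraries held 2.41, 3.13, 2.21, 11.1, 3.02 and 7.07 CPM, and the homozygous ones 3.14, 4.01, 14.4, 9.31, 4.91 and 4.31 CPM. A few libraries of each genotype stood well above the rest, all of them with *Adipoq* over 0.5 CPM, and the log2 fold changes were 0.35 (SE 0.45, adjusted p = 0.889) and -0.083 (SE 0.45, adjusted p = 1.00). *Hilpda*, an inhibitor induced by hypoxia and by fatty acids, was counted 52 to 149 times per library. Its range was 1.31 to 2.82 CPM without Cre, 1.35 to 3.47 CPM with the heterozygous genotype and 1.77 to 3.39 CPM with the homozygous one. In the fit without the filter its log2 fold changes were 0.15 (SE 0.24, adjusted p = 0.901) and 0.051 (SE 0.24, adjusted p = 1.00). After genotype means were removed, *Hilpda* had a correlation over 18 libraries of 0.71 with smooth muscle and 0.68 with adipocyte markers on the log2 scale. With genotype and both contents in the model its slopes were 0.22 (SE 0.13, adjusted p = 0.572) on smooth muscle and 0.041 (SE 0.039, adjusted p = 0.750) on adipocyte markers. Its homozygous value was -0.097 with smooth muscle markers alone in the model.

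The balance of lipase to its regulators was read as log2 ratios of counts within a library. *Pnpla2* to *Abhd5* was 3.37 ± 0.187 (SD, n = 6) in controls and 3.54 ± 0.116 in homozygous ileum, a difference of 0.17 (exact permutation p = 0.0931, adjusted 0.372). *Pnpla2* to *Hilpda* differed by 0.045 (exact permutation p = 0.818, adjusted 0.825) and *Pnpla2* to *G0s2* by -0.10 (exact permutation p = 0.814, adjusted 0.825) between homozygous and control. The level of *G0s2* in the last of these ratios was higher in all 10 libraries with *Adipoq* over 0.5 CPM than in the other 8. None of the 9 tests of *Pnpla2* ratios over the 3 comparisons passed the correction, with adjusted p of 0.372 to 0.825.

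Between homozygous and heterozygous ileum none of the 8 filtered genes was called or had an unadjusted p under 0.05, at a background of 0.00791% (1 gene of 12645) by edgeR, and DESeq2 called none of them either, at a background of 0.0712%. The unfiltered fit called 0% of 19314 genes in this comparison, with 1381 at an unadjusted p under 0.05, and *Plin5* had a log2 fold change of 0.57 (SE 0.61). For *Plin2* the difference was 0.11 (SE 0.12, adjusted p = 0.800), and 3 of 6 homozygous libraries were above the heterozygous median. *Ppara* itself differed by 0.59 (SE 0.17, adjusted p = 0.485) in the same comparison.

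The level of 3 of the genes moved with the adipocyte content of the library. All 10 libraries with *Adipoq* over 0.5 CPM were the 10 highest of the 18 for *G0s2*, at 4.01 to 14.4 CPM against 2.21 to 3.51 CPM in the other 8. For *Cidec* they were 8 of the highest 10. A model with genotype and both marker contents, chosen after these values were seen, gave a slope of 0.35 log2 units per log2 unit of adipocyte markers for *Plin4* (SE 0.047, edgeR adjusted p = 0.00025). The slope was 0.27 for *G0s2* (SE 0.038, adjusted p = 0.00045), beside the 0.23 given for *Cidec*. By this rule 3 of the 8 genes were called, at a background of 1.83% of the 12645 genes. The other 5 were not: the slope was 0.028 for *Plin2* (SE 0.024, adjusted p = 0.735), 0.032 for *Pnpla2* (SE 0.017, adjusted p = 0.535) and -0.0064 for *Plin3* (SE 0.018, adjusted p = 0.938). *Plin5*, in the fit without the filter, had a slope of 0.38 (SE 0.11, adjusted p = 0.100), at a background of 1.49%.

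**Figure D3:**
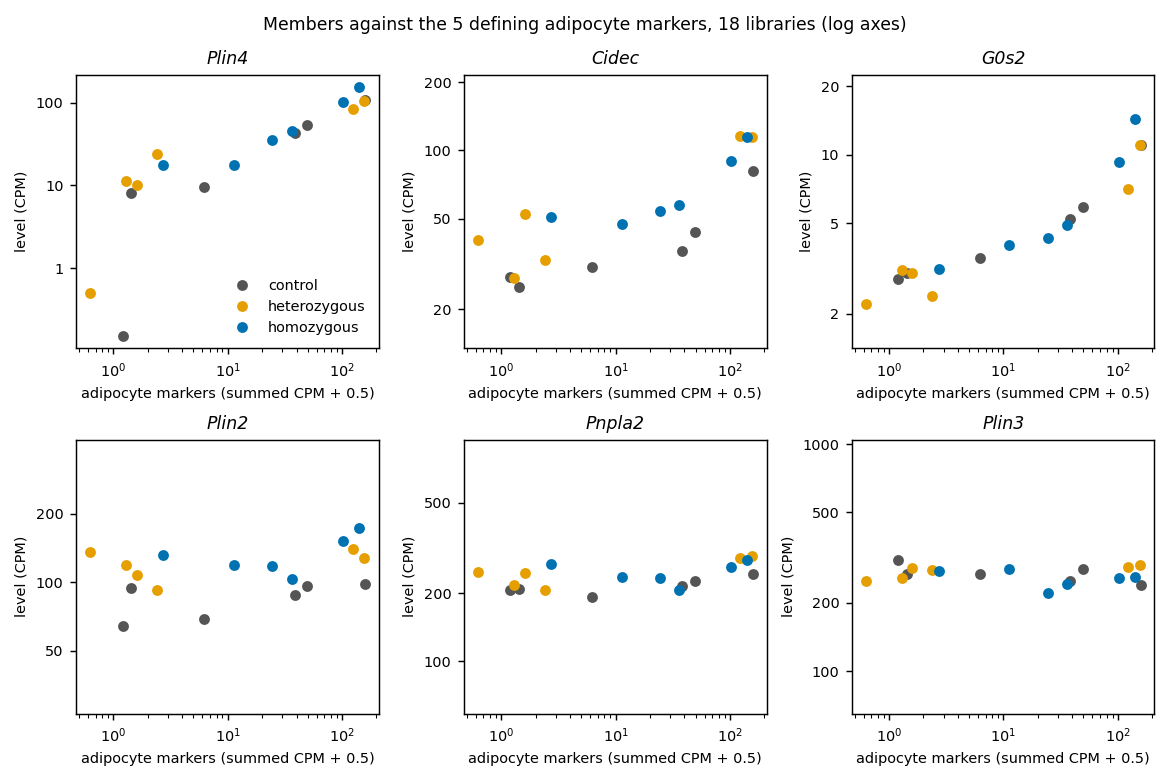
Level in CPM of 6 genes (vertical axes, log scale) against the summed CPM of 5 defining adipocyte markers plus 0.5 (horizontal axes, log scale) in 18 libraries coloured by genotype. *Plin4*, *Cidec* and *G0s2* climb with the markers in all genotypes, while *Plin2* separates controls from homozygous libraries and *Plin3* stays level. Only 1 homozygous library has *Adipoq* at or under 0.5 CPM, so the separation of *Plin2* at low marker content rests on it.

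*Plin4* moved in addition with smooth muscle. Its lowest values, 0.151 and 0.506 CPM, fell in the libraries with the lowest smooth muscle sums, 682 CPM in control replicate 6 and 852 CPM in heterozygous replicate 3. Its highest, 156 CPM, fell in homozygous replicate 3 with the highest sum, 9690.1 CPM. Its slope on smooth muscle markers was 1.71 (SE 0.20, edgeR adjusted p = 1.5e-05) in the same model, and it was the only 1 of the 8 genes called, at a background of 3.96%. After the genotype means were removed, the correlation of *Plin4* with smooth muscle markers over 18 libraries was 0.95 on the log2 scale. The part of the libraries named above in this value was not tested.

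**Figure D4:**
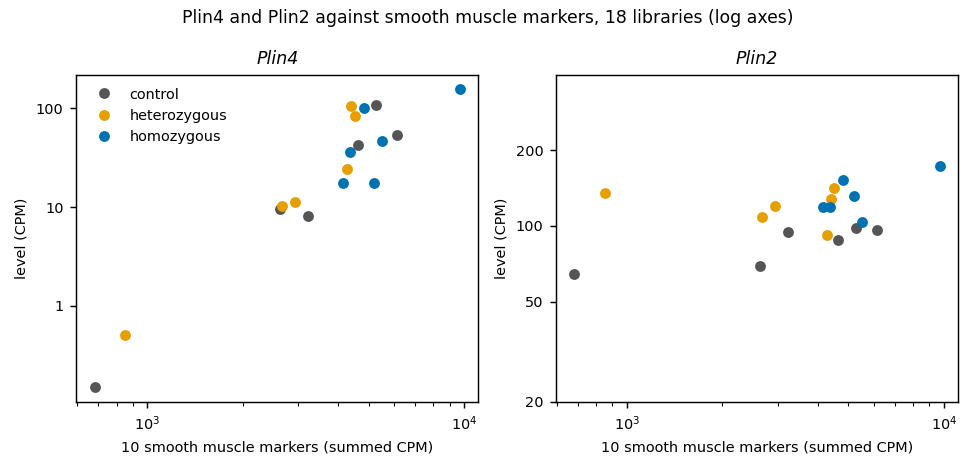
Level in CPM (vertical axes, log scale) of *Plin4* and *Plin2* against the summed CPM of 10 smooth muscle markers (horizontal axes, log scale) in 18 libraries coloured by genotype. *Plin4* spans 0.151 to 156 CPM along the markers, while *Plin2* stays between 64.6 and 174 CPM.

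With the adipocyte and smooth muscle marker contents in the model, *Plin2* kept a log2 fold change of 0.60 (SE 0.12, adjusted p = 0.0295) for homozygous against control. The heterozygous value was 0.57 (SE 0.11, adjusted p = 0.0398), now past the threshold. Enterocyte markers were in no model, although their r with *Plin2* was -0.80 over 18 libraries after genotype means were removed. Their part in the *Plin2* values was not tested. *Cidec* had 0.67 (SE 0.19, adjusted p = 0.208) for homozygous and 0.79 (SE 0.17, adjusted p = 0.0584) for heterozygous against control, where the standard error without the markers was 0.37. With smooth muscle markers alone the homozygous value of *Cidec* was 0.46 (adjusted p = 0.974), and in the libraries with *Adipoq* over 0.5 CPM it was 0.49 (adjusted p = 0.944). Its heterozygous value was 0.46 in the libraries with little *Adipoq* and 1.17 in the others, and without the markers it was 0.46 and 0.45 when heterozygous replicate 4 or 6 was left out. In the 8 libraries without appreciable *Adipoq*, *Cidec* was 25.2, 30.7 and 27.9 CPM in controls, 33.1, 27.5, 40.4 and 52.5 CPM in heterozygous ileum and 51.0 CPM in the single homozygous library. *G0s2* came to 0.057 (SE 0.20) and 0.066 (SE 0.18). *Plin4* came to -0.030 (SE 0.23, adjusted p = 0.993) for homozygous, against 0.78 without the markers, and to 0.76 (SE 0.23, adjusted p = 0.380) for heterozygous against control. The marker models and the *Adipoq* subsets were added after the values were seen, while leaving out 1 library was planned.

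**Figure D5:**
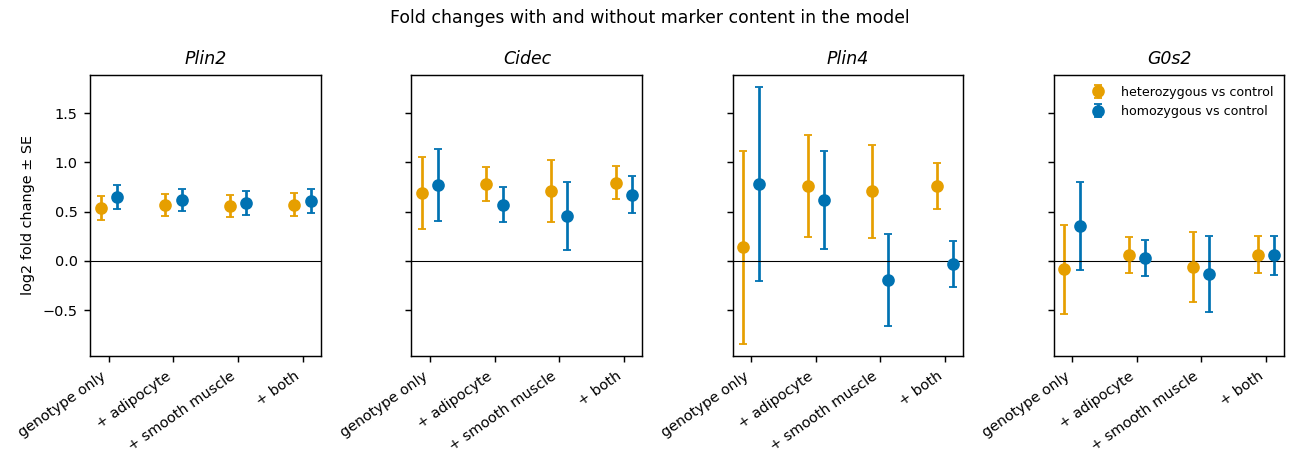
Log2 fold change ± SE against control (vertical axis) of 4 genes in models with genotype only and with adipocyte markers, smooth muscle markers or both added (horizontal axis). *Plin2* stays between 0.54 and 0.65 in both transgenic groups, while *Plin4* in homozygous ileum moves from 0.78 to -0.030 and *G0s2* from 0.35 to 0.057.

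The genes most like *Plin2* across mice were sought by Pearson's r of log2 CPM over 18 libraries after genotype means were removed, among 12644 protein-coding genes, as a description. The highest were *Dhrs3* (0.91), *Fitm2* (0.90), *Pik3r6* (0.89), *Bmp1* (0.88) and *Ankrd46* (0.87), and the lowest *Ace* (-0.86), *Slc44a4* (-0.82) and *Xpnpep2* (-0.81). *Fitm2* encodes an endoplasmic reticulum protein needed for droplet formation, and *Dhrs3* a retinal reductase. Among the other 9 genes, r with *Plin2* was 0.78 for *Pnpla2*, 0.64 for *G0s2* and 0.60 for *Cidec* and *Plin5*, and it was below 0 for *Plin3* (-0.16) and *Cideb* (-0.44). With the summed enterocyte markers it was -0.80, with adipocyte markers 0.49 and with hypoxia-responsive genes 0.067. The closest pair of the 10 genes was *Cidec* and *G0s2*, with r of 0.92, which were also at 0.89 and 0.93 with the adipocyte markers. The libraries differed in depth and tissue composition, and the part of either in these values was not tested.

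Other droplet genes were read from lists written with earlier results of these data known. Of 28 tested genes for droplet assembly and surface, 3 rose and none was called lower in homozygous against control ileum, at the background of 0.411% of all 12645 genes in either direction, with 16 fitted values above 0, 12 below and a list median of 0.011. *Hsd17b11*, a droplet-bound dehydrogenase, rose from 222 ± 12.5 CPM in controls to 420.2 ± 59.7 CPM (SD, n = 6), a log2 fold change of 0.92 (SE 0.11, edgeR adjusted p = 0.00014). *Acsl3*, an acyl-CoA synthetase of nascent droplets, rose by 0.82 (SE 0.18, adjusted p = 0.0460), and *Fitm2* rose by 0.65 (SE 0.12, adjusted p = 0.0099), as much as *Plin2*. In heterozygous ileum, at a background of 0.293%, 1 of the 28 was called, *Hsd17b11* at 0.80 (SE 0.11, adjusted p = 0.00095), beside 0.81 (adjusted p = 0.0672) for *Acsl3* and 0.47 (adjusted p = 0.170) for *Fitm2*. DESeq2 called 3 of the 28 there, these same 3 genes, at its background of 0.648%. For homozygous against control it called 4, at 1.08%, which were these 3 and *Mettl7b*, a droplet-associated methyltransferase with a log2 fold change of 0.40 (SE 0.10, DESeq2 adjusted p = 0.0185, edgeR adjusted p = 0.140).

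Of 22 tested hydrolases other than *Pnpla2*, 2 rose in homozygous and 3 in heterozygous against control ileum, and none was called lower. Fitted values below 0 were found for 7 and 5 of the 22, of which 2 and 1 had an unadjusted p under 0.05, and the list medians were 0.14 and 0.23. The shares of all genes called in these comparisons were 0.411% and 0.293%. *Abhd6*, a monoacylglycerol lipase, stood at 75.7 ± 13.6 CPM without Cre, at 112 ± 12.8 CPM in heterozygous mice and at 126 ± 8.20 CPM in homozygous mice, with log2 fold changes of 0.60 (SE 0.12, edgeR adjusted p = 0.0366) and 0.73 (SE 0.12, adjusted p = 0.0035). *Nceh1*, a cholesteryl ester hydrolase, rose by 0.60 (SE 0.11, adjusted p = 0.0138) and 0.73 (SE 0.11, adjusted p = 0.0014). *Ces2b*, a carboxylesterase, rose by 1.45 (SE 0.26, adjusted p = 0.0143) in heterozygous ileum and had 1.12 (SE 0.26, adjusted p = 0.0776) in homozygous ileum, where DESeq2 called it (adjusted p = 0.0024). DESeq2 called these 3 hydrolases in both comparisons, at backgrounds of 1.08% and 0.648%. None of the 28 and none of the 22 was called between homozygous and heterozygous ileum by edgeR or DESeq2, where by edgeR 0 and 3 had an unadjusted p under 0.05, beside 962 of all 12645 genes. All 3 were lower in homozygous ileum. Of 15 hypoxia-responsive genes, tested because *Hilpda* belongs to that response, none was called against control by edgeR or by DESeq2 in either transgenic group. An unadjusted p under 0.05 was reached by 4 of the 15 in homozygous ileum, beside 1019 of all 12645 genes, and by 1 of the 15 in heterozygous ileum, beside 669. These hypoxia-responsive genes were all higher than in controls. Of the 15 fitted values, 9 were above 0 and 6 below in each comparison.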

How the data were processed

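Whole-thickness ileum of 18 mice was analysed with 1 library per mouse, grouped by the genotype in the labels. The authors aligned paired reads of 150 bases with STAR to Ensembl release 101 (GRCm38) and counted unique, unambiguous reads per gene with featureCounts. The deposited counts are not normalized. CPM deposited by the authors are counts over the library total, the deposited FPKM divide these by gene length, and the deposited log2 CPM are moderated by a prior not given in the sources used here.

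The 10 genes and all lists were chosen with earlier results of these data known. Counts of all 18 libraries entered 1 quasi-likelihood fit of edgeR 4.0.16 in R 4.3.3 (glmQLFTest after glmQLFit, TMM factors, Benjamini-Hochberg), over 12645 protein-coding genes that exceeded 3 CPM in 4 or more libraries, or over 19314 with any count for *Plin5* and *Hilpda*. The pipeline was tested on simulated data for homozygous against control (12645 genes). It found 95 of 97 genes changed by 1 log2 unit and 103 of 103 changed by 2, with 11 false calls. Recovery of smaller changes, such as the 0.65 of *Plin2* in that comparison, was not tested. Recovery in genes that vary as much between mice as *Plin4* (SE 0.98) was not tested separately. Ratios used counts plus 0.5 and exact permutation. Marker models used log2 summed CPM, with 0.5 added for adipocytes. Correlations were computed on log2 CPM (prior count 2). Alternatives were DESeq2 1.42.0, limma 3.58.1 on the deposited log2 values, other scalings, no filter, all biotypes, 12 libraries, sex, the replicate number as a block and each library left out. Gene overlaps came from GENCODE M21, where the ends of all 10 genes matched the counted ones but *Plin4* has 5777 exonic bases against a counted length of 6350, and promoters from RefSeq, where all 10 symbols were found. Named genes are the 10 genes, *Ppara*, the defining adipocyte markers, called genes and the 3 largest changes of the other droplet and hydrolase lists, and the 5 most and 3 least like *Plin2*. *A730085K08Rik*, *Nop9* and *Hdgfl2* are named for their position, and *Mettl7b*, outside this rule, after its DESeq2 call was seen. Python 3.11.15 with pandas 2.3.3 was used for tables.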

Additional observations from a re-analysis of the deposited data

Results flagged for a closer look

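Among 30 sets of 6 libraries (10 genes in 3 genotypes), 2 held a library far from the others, and chance flags about 1 in 20 such sets. In both the library was control replicate 4, with *Cidec* at 81.2 CPM, where the other controls stood at 25.2 to 43.7 CPM, and *Plin5* at 0.675 CPM, where the others stood at 0 to 0.218 CPM. The same library had the highest adipocyte marker sum of the 18, 158 CPM, and the part of this in either value was not tested. Without it the log2 fold change of homozygous against control was 1.06 for *Cidec* (SE 0.36, edgeR adjusted p = 0.313), against 0.77 with it, and 2.54 for *Plin5* (SE 0.64, adjusted p = 0.172), against 1.78 with it.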

How the results depend on the processing

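The number of called genes out of 8 for homozygous against control stayed at 1, *Plin2*, with DESeq2, limma, both other scalings, no filter, all biotypes, 12 libraries, sex, marker covariates and each library left out. With the replicate block it was 0, as it was in the libraries with *Adipoq* over 0.5 CPM. In these fits 49 and 33 of all 12645 genes were called, against 52 in the fit reported. The libraries at or under 0.5 CPM include only 1 homozygous library, so calls were not counted there. What same-numbered libraries shared besides the number is not given in the sources used here, and a shared litter or batch was not tested. Their deviations from the group means correlated between -0.605 and 0.644, with a median of 0.0555. The replicate block changed no other call of the 10 genes. For heterozygous against control the number called was 0, and 1 with DESeq2 and with adipocyte, smooth muscle or both covariates. The covariate fits called 41, 40 and 36 of all 12645 genes there, and 59, 52 and 55 for homozygous against control. The heterozygous number spanned 0 to 1 when 1 library was left out (1 without heterozygous replicate 1, edgeR adjusted p of *Plin2* 0.0331). Over all genes those fits called 25 to 53, and 43 to 65 for homozygous against control. The cause of these changes was not tested. Over all genes DESeq2 called 136 for homozygous and 82 for heterozygous against control, against 52 and 37.

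By unadjusted exact permutation p, the *Plin2* to *Plin3* ratio of heterozygous against control (0.47) went to p = 0.0938 with the replicate block and spanned 0.36 to 0.55 when 1 library was left out. It missed 0.05 without heterozygous replicate 2, 3 or 6 (exact permutation p = 0.0519). The *Pnpla2* to *Abhd5* ratio of homozygous against control (0.17) went to exact p = 0.0312 with the replicate block and spanned 0.12 to 0.21, passing without control replicate 2 (exact p = 0.0455). Leaving out 1 library turned the sign of 3 ratios, with spans of -0.31 to 0.13 (*Pnpla2* to *G0s2*) and -0.041 to 0.17 (*Pnpla2* to *Hilpda*) for homozygous against control and -0.023 to 0.064 (*Pnpla2* to *Abhd5*) for homozygous against heterozygous.

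No called fold change reversed. Uncalled ones turned in sign as follows, as log2 fold changes. Leaving out 1 library gave, for homozygous against control, -0.069 to 0.048 for *Cideb*, -0.0011 to 0.68 for *G0s2* and -0.020 to 0.082 for *Abhd5*. For heterozygous against control it gave -0.44 to 0.82 for *Plin4*, -0.11 to 0.16 for *Hilpda* and -0.50 to 0.25 for *G0s2*. For homozygous against heterozygous it gave -0.11 to 0.32 for *Cidec*, -0.015 to 0.26 for *Hilpda*, -0.090 to 0.0085 for *Pnpla2* and -0.11 to 0.0012 for *Abhd5*. For heterozygous against control *Hilpda* was -0.031 with limma and -0.015 with sex, and *Plin4* -0.18 with sex. With adipocyte markers *Cideb* was 0.029 (homozygous) and *G0s2* 0.060 (heterozygous), and between the transgenic groups *Plin4* was -0.14, *Cidec* -0.21, *Hilpda* -0.038 and *G0s2* -0.030. With smooth muscle markers *Plin4* was -0.19, *Cideb* 0.076, *Hilpda* -0.10 and *G0s2* -0.13 (homozygous), and between the transgenic groups *Plin4* was -0.90, *Cideb* 0.013, *Cidec* -0.25, *Hilpda* -0.16 and *G0s2* -0.072. With both, *Plin4* was -0.030, *Cideb* 0.060 and *Hilpda* -0.080 (homozygous), *G0s2* 0.066 (heterozygous), and between the transgenic groups *Plin4* was -0.79, *Cideb* 0.012, *Cidec* -0.12, *Hilpda* -0.15 and *G0s2* -0.0089. In libraries with little *Adipoq*, *G0s2* was -0.044 and *Abhd5* -0.13 (homozygous), *Plin3* -0.079, *Cideb* -0.10, *Hilpda* -0.19 and *Abhd5* -0.060 (heterozygous), and between the transgenic groups *Plin5* was -0.49, *Cideb* 0.028 and *Pnpla2* 0.19. In those with *Adipoq* over 0.5 CPM, *Plin3* was 0.026 and *Cideb* 0.15 (homozygous), *G0s2* 0.37 (heterozygous), and between the transgenic groups *Plin2* was -0.023, *Plin4* -0.44, *Cidec* -0.69, *Hilpda* -0.36 and *G0s2* -0.33. The marker models and both *Adipoq* subsets were chosen after seeing the data. *Plin5* and *Hilpda* had few reads, with counts of at most 74 and 149 per library.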
